A study of Mus musculus with 12 samples.

Results

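The core genes of the integrated stress response were examined by RNA sequencing in mouse forelimbs and in osteoclast cultures in which Impdh2, which encodes an enzyme of guanine nucleotide synthesis, had been deleted. The 10 genes were taken by symbol from the deposited count tables: Atf4, Atf5, Atf3, Ddit3, Trib3, Asns, Chac1, Sesn2, Eif4ebp1 and Ppp1r15a. They are 10 of 51826 gene identifiers in the forelimb table and of 55401 in the culture tables, and all 10 passed the filter on low counts in both. The forelimbs were harvested at stage E12.5 from wild type (WT) embryos and from embryos with Impdh2 deleted in limb mesenchymal progenitors by a Prx-driven Cre (Prx-cKO). The cultures were grown from bone marrow, either WT or lacking Impdh2 in myeloid cells through a LysM-driven Cre (LysM-cKO). All culture samples carry 1 treatment label, osteoclast differentiation, and are titled R0D3 or R40D3. Per the labels' protocols, marrow cells were grown for 3 days in supernatant of L929 cells, in an amount matching 20 ng/ml M-CSF, a macrophage growth factor, and were then reseeded and given 40 ng/ml of RANKL, the cytokine that drives osteoclast formation. R0 and R40 were read as the absence and presence of RANKL from that dose, an inference that no label spells out. Each of the 6 groups (forelimb WT, forelimb Prx-cKO, and WT and LysM-cKO cultures at R0D3 and at R40D3) held 2 libraries. A Cre reaches only the cells that express it, so a whole forelimb keeps undeleted cells of other lineages. Ages and strains of the mice are not in the labels used here.

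The integrated stress response is a shared reaction to several kinds of stress. Kinases that sense amino acid shortage, unfolded protein in the endoplasmic reticulum, viral RNA or haem shortage phosphorylate the translation factor eIF2, which lowers protein synthesis overall and favours translation of a few messages, Atf4 among them. The ATF4 protein then raises transcription of genes for amino acid synthesis and uptake, for redox defence and for the recovery of translation. Because ATF4 is set largely by translation, the level of Atf4 RNA is not a measure of its protein. In bone, ATF4 is known from osteoblast differentiation and amino acid supply, and it is also expressed in osteoclast precursors.

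By role, the first 4 genes encode transcription factors of the basic leucine zipper family. Atf4 (ENSMUSG00000042406, chr15:80255184-80257541, plus strand) is the central effector. Atf5 (ENSMUSG00000038539, chr7:44812256-44816658, minus strand) is controlled in translation in a similar way and is known from the mitochondrial stress response. Atf3 (ENSMUSG00000026628, chr1:191170296-191218039, minus strand) is induced by ATF4 and also by many other signals in macrophages. Ddit3 (ENSMUSG00000025408, chr10:127290774-127296288, plus strand) encodes CHOP, linked to cell death under lasting stress. A further 3 genes act in feedback or on translation. Trib3 (ENSMUSG00000032715, chr2:152337422-152344032, minus strand) encodes a pseudokinase that feeds back on ATF4. Ppp1r15a (ENSMUSG00000040435, chr7:45522916-45526268, minus strand) encodes GADD34, which brings a phosphatase to eIF2. Eif4ebp1 (ENSMUSG00000031490, chr8:27260329-27276674, plus strand) encodes 4E-BP1, a repressor of cap-dependent translation. The last 3 act in metabolism and redox balance: Asns (ENSMUSG00000029752, chr6:7675169-7693254, minus strand) encodes asparagine synthetase, Chac1 (ENSMUSG00000027313, chr2:119351229-119354381, plus strand) an enzyme that degrades glutathione, and Sesn2 (ENSMUSG00000028893, chr4:132492032-132510501, minus strand) encodes sestrin 2, an inhibitor of mTORC1 signalling and a known target of p53 as well as of ATF4. Positions are from GENCODE M21 on GRCm38, and all 10 genes are annotated as protein coding. Exons of Ddit3, Atf5 and Ppp1r15a overlap those of genes on the other strand, so their counts are uncertain to that extent. A second identifier with the symbol Ddit3, for an upstream reading frame, was listed in the culture tables only and held 0 counts in all 8 libraries.

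ATF4 binds, with partner proteins, sites whose core is TGATGNAA (TTNCATCA on the other strand), so the promoters of the genes that carry the results below were read for it. RefSeq promoters on GRCm38.p6 were given for 9 of the 10 genes, Eif4ebp1 being the exception, and the 250 bases before each start site were searched on both strands. The core was found in 3 genes, Asns, Atf3 and Chac1, against 3.91% of all 27025 genes with promoter windows of that length. The cyclic AMP response element TGACGTCA, its own reverse complement, was found in Ppp1r15a alone, against 1.77% of those genes. Atf3 is shown whole because it was called between the cultures in both genotypes, and Asns because it lay near the threshold there, and Chac1 and Ppp1r15a as the bases around the match. The match of Asns begins 23 bases before the start site, that of Atf3 110 bases before, that of Chac1 193 bases before and that of Ppp1r15a 12 bases before. The RefSeq start of Atf3 lies inside the GENCODE gene, which has a longer 5′ end. A match is a description of letters and not a measured binding site. Sequences run 5′ to 3′ on the strand of the gene, with the matched motif in capitals.
Asns, chr6:7693210-7693459, minus strand: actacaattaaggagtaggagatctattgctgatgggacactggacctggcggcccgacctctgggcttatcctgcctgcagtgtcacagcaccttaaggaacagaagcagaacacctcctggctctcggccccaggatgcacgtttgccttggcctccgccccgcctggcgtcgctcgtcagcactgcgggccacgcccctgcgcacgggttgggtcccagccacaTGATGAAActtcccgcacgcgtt
Atf3, chr1:191183334-191183583, minus strand: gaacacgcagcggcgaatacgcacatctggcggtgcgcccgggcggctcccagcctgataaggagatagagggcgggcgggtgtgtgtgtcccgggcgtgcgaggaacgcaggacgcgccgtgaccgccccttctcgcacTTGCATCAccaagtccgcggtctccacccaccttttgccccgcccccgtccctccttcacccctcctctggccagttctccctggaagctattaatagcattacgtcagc
Chac1, chr2:119351037-119351068, plus strand: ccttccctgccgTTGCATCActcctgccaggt
Ppp1r15a, chr7:45526269-45526292, minus strand: ccgcctctccggTGACGTCAgcac

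Forelimb libraries held 28892215 to 69466572 counts and culture libraries 16009146 to 19221865. Levels below are counts per 1000000 (CPM) with library sizes scaled by the TMM method. Impdh2 was at 260.4 and 272 CPM in WT forelimbs against 169.7 and 199 CPM in Prx-cKO forelimbs (log2 fold change −0.53, SE 0.16, edgeR adjusted p 0.443), lower in both knockout libraries but not past the threshold. In the cultures Impdh2 fell at R40D3 (log2 fold change −1.73, SE 0.15, edgeR adjusted p 0.0386), as it did at R0D3 (log2 fold change −1.81, SE 0.16, edgeR adjusted p 0.0323). Leaving out any 1 of the compared libraries, or fitting only those 4, gave log2 fold changes of −1.65 to −1.81 at R40D3 and −1.63 to −1.97 at R0D3 with no call, and at R40D3 library size alone also gave none. All 8 limb mesenchyme markers were detected in the forelimbs, and all 8 macrophage markers in the cultures. The 11 osteoclast markers summed to 352 to 471 CPM in the WT R0D3 cultures and to 26470 and 39000 CPM in the WT R40D3 cultures. Each forelimb genotype held 1 library with high Xist and no Ddx3y counts, and 1 with the reverse. Xist is expressed in females and Ddx3y lies on the Y chromosome. The forelimb libraries of a genotype therefore differ in sex and are not technical repeats of 1 sample. Their spread includes any difference of sex. The labels do not say whether libraries came from separate animals or cultures. The p-values measure the spread between these libraries, which in the cultures may be technical.

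The order of the 10 genes differed between the tissue and the cultures. Per kilobase of exon, the highest mean in WT forelimbs was that of Atf4, at 78.6 ± 11.5 CPM per kilobase (SD, n = 2), 3.81 times that of Eif4ebp1, the next gene. Asns, Atf5, Ddit3, Sesn2 and Ppp1r15a followed, and of these Sesn2 and Ppp1r15a overlapped each other. Trib3 (0.683 CPM per kilobase), Atf3 (0.675 CPM per kilobase) and Chac1 (0.378 CPM per kilobase) were lowest. In the WT R0D3 cultures Atf3 was highest instead, at 96.7 ± 7.09 CPM per kilobase, 2.23 times Atf4. At R40D3 the highest was again Atf4, at 63.8 ± 14.4 CPM per kilobase (SD, n = 2) in WT, and Eif4ebp1, Atf3 and Atf5 came next, with neighbouring ranges overlapping from Eif4ebp1 to Atf5. Trib3 and Chac1 were the lowest of the 10 in all 4 culture groups, with 20 to 70 counts per library for Trib3 and 4 to 60 for Chac1. Forelimbs and cultures were counted against different gene annotations, so levels across them are given as a description.

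In the forelimb, Sesn2 and Eif4ebp1 were the members that stood farthest from WT, Asns was higher by a smaller margin, and Atf4 itself was nearly level; no gene of any kind passed the threshold. Of the 19987 genes tested 0% were called by the edgeR quasi-likelihood test, so the 0 members called carry no weight by themselves. At an unadjusted p under 0.05, 3 of 10 members were higher in Prx-cKO, against 5.87% of all genes, and no member was lower. By DESeq2, which gave no adjusted p for Chac1, 2 of 10 members passed, both higher, against 0.996% of all genes. In the DESeq2 shares, genes without an adjusted p count as not called. Both Prx-cKO libraries lay above both WT libraries for 5 members, against 22.2% of all genes, and below both for 1, against 21%. The log2 fold change was positive in 9 of 10 members, with a median of 0.25, against −0.03 over all tested genes. The plot of forelimb levels shows each library.

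**Figure D1:**
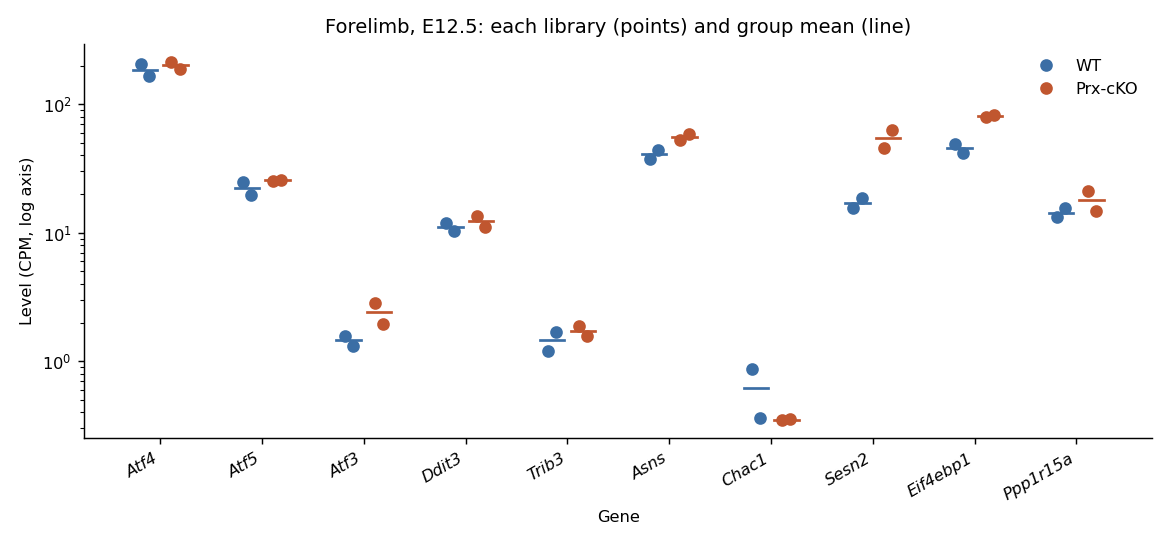
Levels of the 10 genes in the 4 forelimb libraries in CPM on a log axis; points are libraries (blue WT, orange Prx-cKO) and lines are means of 2. Sesn2 (15.5 and 18.6 against 46.0 and 63.2 CPM) and Eif4ebp1 (48.8 and 42.0 against 79.4 and 81.8 CPM) separate by genotype, while the Atf4 libraries interleave.

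Among the metabolic genes, Sesn2 was at 15.5 and 18.6 CPM in WT against 46.0 and 63.2 CPM in Prx-cKO. Both knockout libraries stood far above both WT libraries, a 3.2-fold difference (log2 fold change 1.68, SE 0.23) with an edgeR adjusted p of 0.332 and a DESeq2 adjusted p of 2.37e-06. Asns was at 37.5 and 44.2 CPM in WT against 52.7 and 59.0 CPM in Prx-cKO, again without overlap but with a smaller gap (log2 fold change 0.45, SE 0.17, edgeR unadjusted p 0.0447, adjusted p 0.475). Chac1 was near the limit of detection, at 0.874 and 0.362 CPM in WT and 0.348 and 0.352 CPM in Prx-cKO, from 10 to 37 counts per library. Its log2 fold change of −0.71 (SE 0.68) rested on WT replicate 1 and was −0.08 without that library.

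Of the genes of feedback and translation, Eif4ebp1 was at 48.8 and 42.0 CPM in WT against 79.4 and 81.8 CPM in Prx-cKO. The groups did not overlap, and the log2 fold change was 0.83 (SE 0.16, edgeR adjusted p 0.367, DESeq2 adjusted p 0.00632). Trib3 was at 1.21 and 1.70 CPM in WT against 1.88 and 1.57 CPM in Prx-cKO, and Ppp1r15a at 13.2 and 15.5 CPM against 21.0 and 14.7 CPM. In both genes 1 knockout library lay within the WT range, and the log2 fold changes were 0.20 (SE 0.41, edgeR unadjusted p 0.639) and 0.31 (SE 0.26, edgeR unadjusted p 0.284).

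No transcription factor passed, and of the 4 Atf3 had the largest log2 fold change. Atf4 was at 205 and 166 CPM in WT against 214 and 189 CPM in Prx-cKO, with overlapping groups (log2 fold change 0.12, SE 0.17). Ddit3 likewise overlapped, at 11.9 and 10.3 CPM against 13.4 and 11.2 CPM (log2 fold change 0.14, SE 0.23). Atf5 was at 25.0 and 19.5 CPM in WT against 25.3 and 25.8 CPM in Prx-cKO, so that the groups were separated by a narrow margin (log2 fold change 0.20, SE 0.20). Atf3, scarce in this tissue, was at 1.58 and 1.32 CPM in WT against 2.85 and 1.96 CPM in Prx-cKO (log2 fold change 0.71, SE 0.40, edgeR adjusted p 0.589). Both knockout libraries were above both WT libraries, from 67 to 100 counts per library.

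The member calls of the forelimb depended on which libraries were fitted. Without WT replicate 1, edgeR called Sesn2 and Eif4ebp1 (adjusted p 0.0153 and 0.0446), and without WT replicate 2 it called Sesn2 (adjusted p 0.0341), while without either Prx-cKO library it called no member. With 1 library left in a group, that library is assumed to vary like the other group. Over the 4 such fits the log2 fold change of Sesn2 ran from 1.43 to 1.90 and that of Eif4ebp1 from 0.73 to 0.91.

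Around these genes, the forelimb lists of other pathway genes also lay above WT in part, with no gene past the threshold. Of 39 other ATF4 targets tested, 28 had a positive log2 fold change, against 47.2% of all genes, and the median was 0.24. At an edgeR unadjusted p under 0.05, 11 were higher, against 5.87% of all genes, and 2 were lower. The smallest p belonged to genes of serine and one-carbon metabolism. Phgdh, the first enzyme of serine synthesis, was at 230.2 and 272 CPM in WT against 427 and 564 CPM in Prx-cKO (log2 fold change 0.98, SE 0.20, edgeR adjusted p 0.382). Mthfd2, a mitochondrial folate enzyme, was at 39.0 and 36.3 CPM against 64.6 and 76.3 CPM (log2 fold change 0.91, SE 0.17). Shmt2, which passes serine carbon to mitochondrial folate, was at 93.9 and 99.7 CPM against 138 and 154 CPM (log2 fold change 0.59, SE 0.15). None of these 3, picked by smallest p, overlapped between the groups. Over all genes, 22.2% were likewise higher in both Prx-cKO libraries. By DESeq2, 2 of the 39 passed, both higher, against 0.996% of all genes.

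The other arms differed from one another. In the list of eIF2 kinases and eIF2 machinery 14 of 18 genes were positive with a median of 0.17, and the smallest p were those of Eif2b2, Eif2b3 and Eif2b1, subunits of the exchange factor that recharges eIF2 (log2 fold changes 0.59, 0.63 and 0.40). The 17 endoplasmic reticulum chaperones of the ATF6 and XBP1 arms, which mark unfolded protein there, had 7 positive and 10 negative values, a median of −0.03 and no unadjusted p under 0.05. The smallest p in that list were those of Sdf2l1, Manf and Syvn1 (log2 fold changes 0.42, 0.31 and −0.26). The 8 mitochondrial chaperones and proteases had a median of 0.42, with 6 positive, and were led by Lonp1 (log2 fold change 0.50), Hspd1 (log2 fold change 0.50) and Clpp (log2 fold change 0.45). Of the 9 paralogues of the members 8 were negative, among them Sesn1 (log2 fold change −0.31, SE 0.16) and Sesn3 (log2 fold change −0.55, SE 0.22), the other sestrins, where Sesn2 was positive. The difference between Sesn2 and its paralogues was not tested.

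Broader measures were also compared between the forelimb genotypes. The median log2 fold change over the 23 p53 targets was 0.93. Of these, 17 were higher at an edgeR unadjusted p under 0.05, against 5.87% of all genes. By DESeq2, 11 of the 23 passed, all higher, against 0.996% of all genes. The list was led by Ptprv (log2 fold change 4.15), Ccng1 (log2 fold change 2.31) and Cdkn1a (log2 fold change 2.12). Sesn2, a known p53 target as given above, was not in that list. All 8 heat shock genes were positive, with a median of 0.36, and Hsp90aa1, Hspb1 and Hspa8 had the smallest p (log2 fold changes 0.65, 0.55 and 0.46). Of 17 immediate early genes, which respond to handling as well as to signals, 13 were positive. Their median was 0.39, or 0.034 without Prx-cKO replicate 2. Btg2, Klf2 and Dusp1 had the smallest p (log2 fold changes 0.61, 1.02 and 0.50). The lists share genes: Btg2 and, among the paralogues, Sesn1 are also in the list of p53 targets. Summed limb mesenchyme markers were 1492 and 1776 CPM in WT and 1055 and 1176 CPM in Prx-cKO, with no marker at 0. Summed skeletal muscle markers were 341 and 318 CPM against 952 and 452 CPM, endothelial markers 169 and 159 CPM against 232 and 225 CPM, and myeloid markers 50.5 and 45.8 CPM against 104 and 96.5 CPM. Surface ectoderm markers summed to 699 and 854 CPM in WT and to 865 and 964 CPM in Prx-cKO, erythroid markers to 4560 and 3290 CPM against 4024 and 3411 CPM, and nerve and Schwann markers to 69.5 and 52.6 CPM against 55.4 and 77.3 CPM. In whole tissue, fewer cells of a type and less RNA per cell cannot be told apart, and the part of these measures in the values of the members was not tested.

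In the cultures, the members split by direction between R0D3 and R40D3, with Atf3 and Eif4ebp1 called in opposite directions in both genotypes. Atf3 fell and Eif4ebp1 rose, Asns passed in some alternatives, Atf4 only with the replicate number as a block, and Sesn2 stayed at similar values throughout. In WT, 1 of 10 members was called higher, against 11.4% of all 14030 genes tested, and 1 lower, against 5.52%. In LysM-cKO, again 1 was called higher, against 6.99%, and 1 lower, against 3.15%. The groups did not overlap for 4 members higher at R40D3 and 3 lower in WT, against 32.9% and 29.2% of all genes, and for 3 higher and 1 lower in LysM-cKO, against 27.3% and 22.5%. Members are few, and 1 of 10 is near these background shares. Median log2 fold changes over the members were 0.19 in WT and 0.11 in LysM-cKO, against 0.01 and 0.01 over all genes.

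**Figure D2:**
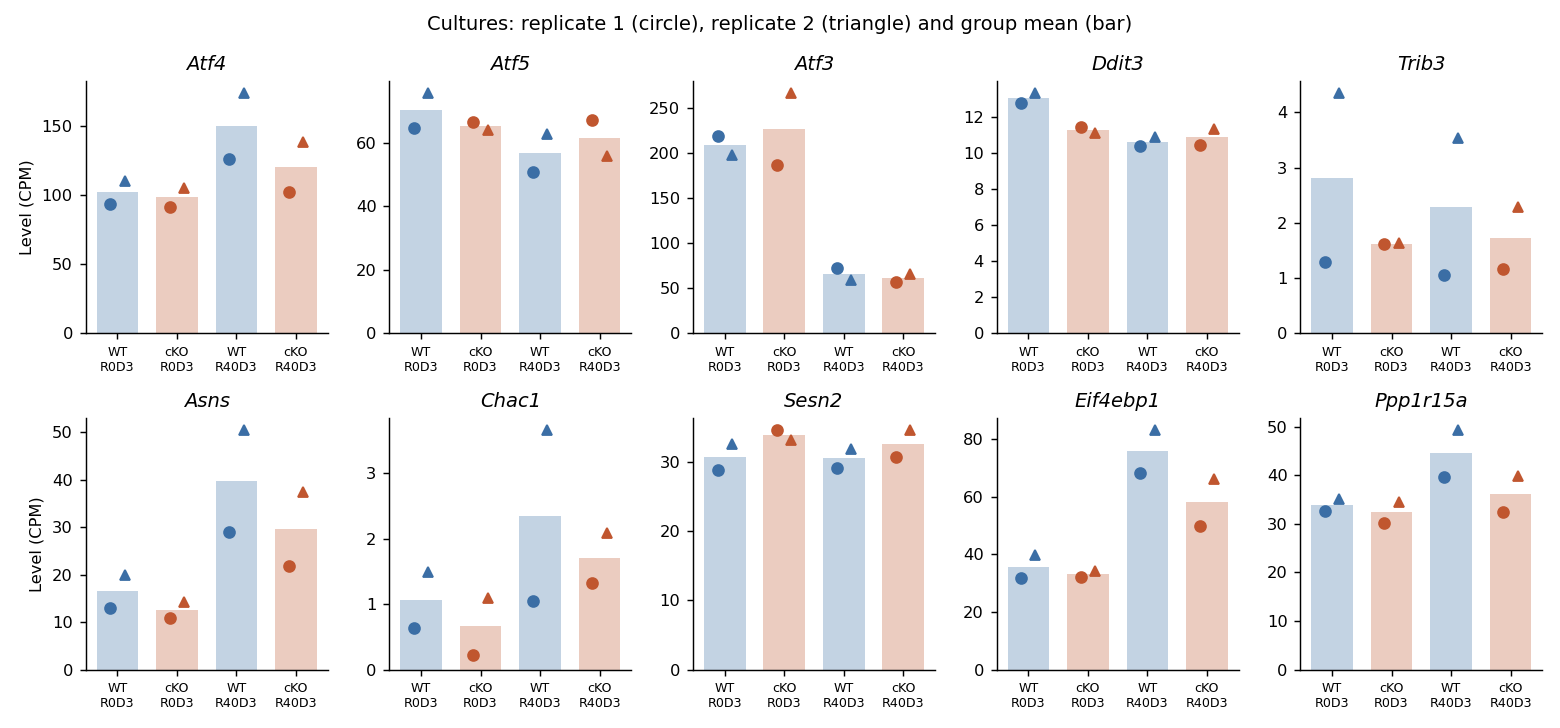
Levels of the 10 genes in the 8 culture libraries in CPM on linear axes from 0, 1 panel per gene; circles are replicate 1, triangles replicate 2 and bars the means of 2 (blue WT, orange LysM-cKO). Atf3 is lower and Eif4ebp1 and Asns are higher at R40D3 in both genotypes, and the triangle lies above the circle in all 4 groups for Atf4, Trib3, Asns, Chac1, Eif4ebp1 and Ppp1r15a.

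Among the transcription factors, Atf3 was at 219 and 197 CPM in WT R0D3 cultures and at 72.5 and 58.5 CPM at R40D3. In LysM-cKO it was at 186 and 266 CPM and at 57.01 and 65.5 CPM. All 4 R40D3 libraries lay below all 4 R0D3 libraries, and Atf3 fell in WT (log2 fold change −1.67, SE 0.19, edgeR adjusted p 0.00171) as well as in LysM-cKO (log2 fold change −1.89, SE 0.19, edgeR adjusted p 0.00185). Atf3 was called in each of the alternatives run, with edgeR or DESeq2, in both genotypes. Atf4 went the other way. Its levels were 93.6 and 111 CPM at R0D3 and 127 and 174 CPM at R40D3 in WT, without overlap, and 91.5 and 105 CPM against 103 and 139 CPM in LysM-cKO, with overlap. The log2 fold changes of 0.56 (SE 0.20, edgeR adjusted p 0.0996) in WT and 0.29 (SE 0.20, edgeR adjusted p 0.428) in LysM-cKO missed the threshold.

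Atf5 and Ddit3 were lower at R40D3 in both WT libraries and overlapped in LysM-cKO. Atf5 was at 64.9 and 75.8 CPM against 50.7 and 62.7 CPM in WT (log2 fold change −0.31, SE 0.14, edgeR adjusted p 0.188), while LysM-cKO was at 66.6 and 64.0 CPM against 67.4 and 56.1 CPM. Ddit3 was at 12.8 and 13.3 CPM against 10.4 and 10.9 CPM in WT (log2 fold change −0.30, SE 0.13, edgeR adjusted p 0.169), while LysM-cKO was at 11.4 and 11.1 CPM against 10.4 and 11.3 CPM. Neither gene passed in any alternative run.

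Eif4ebp1 rose with R40D3. In WT it was at 31.9 and 39.8 CPM at R0D3 and at 68.3 and 83.3 CPM at R40D3 (log2 fold change 1.08, SE 0.18, edgeR adjusted p 0.00658). In LysM-cKO it was at 32.2 and 34.3 CPM and at 49.9 and 66.4 CPM (log2 fold change 0.80, SE 0.18, edgeR adjusted p 0.03). No R40D3 library reached down to an R0D3 library. The call in WT was lost without R0D3 replicate 1 or R40D3 replicate 2, and that in LysM-cKO without R0D3 replicate 1, R0D3 replicate 2 or R40D3 replicate 2, or with only the 4 LysM-cKO libraries fitted. Over all alternatives its adjusted p reached at most 0.0711 in WT and 0.176 in LysM-cKO.

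Ppp1r15a and Trib3, the genes of feedback, did not pass in this fit. Ppp1r15a was at 32.7 and 35.2 CPM at R0D3 and at 39.6 and 49.4 CPM at R40D3 in WT (log2 fold change 0.39, SE 0.15, edgeR adjusted p 0.127). Its LysM-cKO libraries were at 30.2 and 34.6 CPM against 32.5 and 39.9 CPM. Trib3 spread widely between the WT replicates, at 1.28 and 4.35 CPM at R0D3 and 1.05 and 3.54 CPM at R40D3 in WT, whereas LysM-cKO was at 1.61 and 1.64 CPM against 1.16 and 2.28 CPM.

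Of the metabolic genes, Asns was at 13.1 and 20.0 CPM at R0D3 and at 29.0 and 50.5 CPM at R40D3 in WT. In LysM-cKO it was at 10.9 and 14.3 CPM and at 21.9 and 37.4 CPM. The R40D3 libraries were higher without overlap in both genotypes, and the log2 fold changes of 1.26 (SE 0.36, edgeR adjusted p 0.0515) in WT and 1.24 (SE 0.37, edgeR adjusted p 0.083) lay just outside the threshold. DESeq2 called Asns in both (adjusted p 0.00295 and 0.00613). In WT edgeR also called it with library size alone (adjusted p 0.0482), with only the 4 WT libraries (adjusted p 0.0261) and without R40D3 replicate 1 (adjusted p 0.0398), and in LysM-cKO without R40D3 replicate 1 (adjusted p 0.0425). Chac1 was at 0.641 and 1.49 CPM against 1.05 and 3.67 CPM in WT (log2 fold change 1.11, SE 0.75) and at 0.230 and 1.09 CPM against 1.32 and 2.095 CPM in LysM-cKO (log2 fold change 1.36, SE 0.87), and did not pass. Sesn2 was nearly constant, at 28.8 and 32.5 CPM against 29.1 and 31.8 CPM in WT (log2 fold change −0.01, SE 0.11) and at 34.6 and 33.1 CPM against 30.6 and 34.5 CPM in LysM-cKO (log2 fold change −0.06, SE 0.11).

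Same-numbered culture libraries deviated together and the 2 replicate numbers were deposited as separate tables, so differences were also read within each number. In 6 of 10 members replicate 2 was higher than replicate 1 in all 4 groups, against 17.8% of all genes tested. The median log2 ratio of replicate 2 to replicate 1 was 0.25 over the members and 0.01 over all genes (pseudocount 0.5 CPM). It was largest for Chac1, at 1.95-fold, Trib3, at 1.86-fold, and Asns, at 1.55-fold. Within numbers, Asns was higher at R40D3 by 1.15 and 1.34 on the log2 scale in WT (replicates 1 and 2) and by 1.01 and 1.39 in LysM-cKO. The ratios within numbers of Atf4 were 0.43 and 0.66 in WT and 0.17 and 0.40 in LysM-cKO. With the replicate number as a block, edgeR called 4 members higher in WT, against 16.7% of all genes, and 1 lower, against 11.6%. The added calls were Asns (adjusted p 0.000116), Atf4 (adjusted p 0.00159) and Ppp1r15a (adjusted p 0.0114). In LysM-cKO the block gave 3 members higher, against 13% of all genes, and 1 lower, against 8.22%, and the added calls were Asns (adjusted p 0.000286) and Atf4 (adjusted p 0.0462). Summed stromal fibroblast markers were 1368 and 1196 CPM (replicates 1 and 2) in WT R0D3, 1599 and 1528 CPM in WT R40D3, 1563 and 498 CPM in LysM-cKO R0D3 and 1450 and 426 CPM in LysM-cKO R40D3, with no marker at 0. Summed neutrophil markers were lower in replicate 2 in every culture group, from 289 to 63.3 CPM in WT R40D3 and from 110 to 58.6 CPM in LysM-cKO R0D3. Their part in the replicate differences was not tested.

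**Figure D3:**
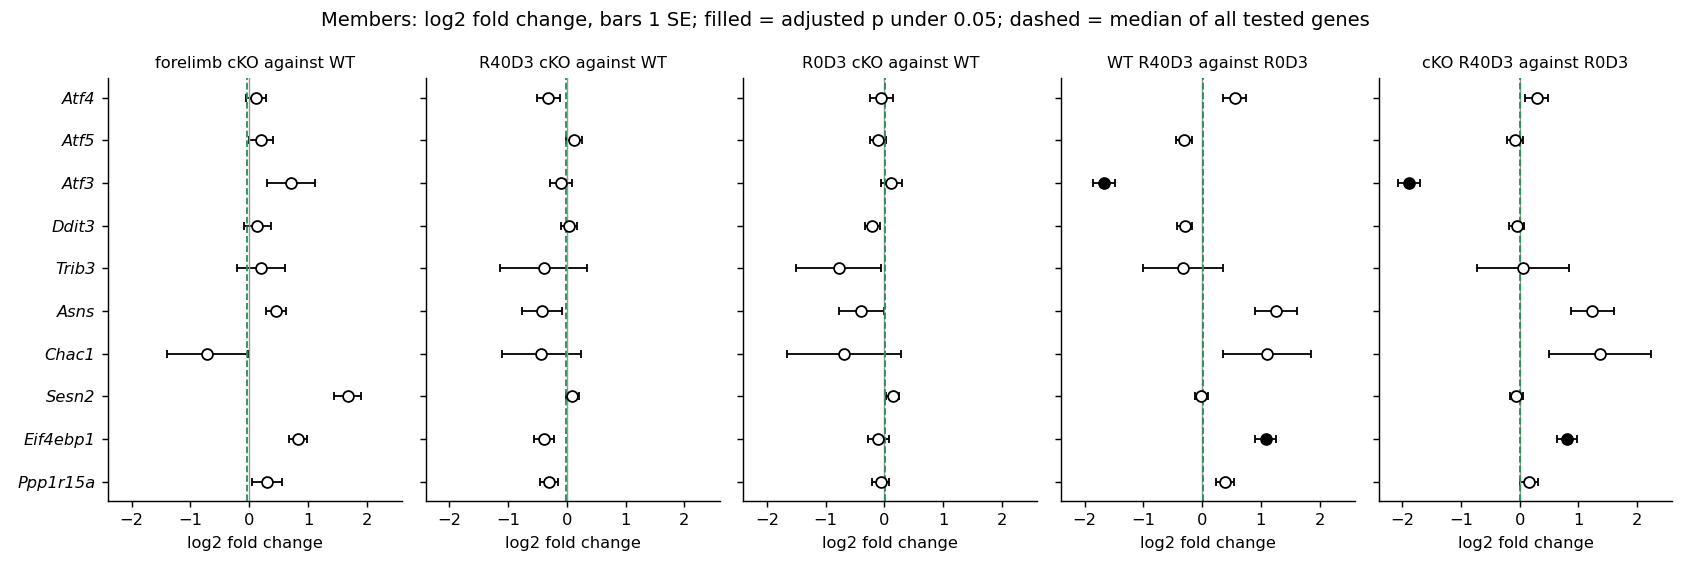
Log2 fold changes of the 10 genes in 5 comparisons, with bars of 1 SE; filled points have an edgeR adjusted p under 0.05 and the dashed line is the median of all tested genes. The filled points are Atf3 (−1.67 and −1.89) and Eif4ebp1 (1.08 and 0.80) at R40D3 against R0D3; Sesn2 at 1.68 in the forelimb is the farthest of the knockout comparisons and is open.

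Other genes of the pathway were also higher at R40D3 in part. Of 39 other ATF4 targets tested, 9 rose and 1 fell in WT, against 11.4% of all genes called higher and 5.52% called lower. In LysM-cKO 7 rose and none fell, against 6.99% and 3.15%. The medians were 0.29 and 0.25, and without R40D3 replicate 2 that of WT was −0.007. Jdp2, a leucine zipper relative of ATF3 known from osteoclast differentiation, rose from 10.8 and 11.4 CPM to 272 and 386 CPM in WT (log2 fold change 4.89, SE 0.32, edgeR adjusted p 0.000264). In LysM-cKO Jdp2 rose from 13.2 and 9.52 CPM to 169 and 282 CPM (edgeR adjusted p 0.000571). Jdp2 was therefore called in the direction opposite to Atf3, of which it is a paralogue. Slc1a5, a glutamine transporter, rose from 26.8 and 29.4 CPM to 183 and 259 CPM in WT (log2 fold change 2.98, edgeR adjusted p 0.00107) and from 20.4 and 26.6 CPM to 109 and 188 CPM in LysM-cKO (log2 fold change 2.66, edgeR adjusted p 0.0026). Nupr1, a stress-induced chromatin protein, rose in WT (log2 fold change 1.01, edgeR adjusted p 0.00948) and in LysM-cKO (log2 fold change 1.06, edgeR adjusted p 0.0146). The other named calls were Gars, a transfer RNA synthetase (log2 fold change 0.84, edgeR adjusted p 0.00624), and Xpot, which exports transfer RNA (log2 fold change 0.68, edgeR adjusted p 0.00827), in WT. In LysM-cKO they were the lipoprotein receptor gene Vldlr (log2 fold change 2.31, edgeR adjusted p 0.00609) and Herpud1, of endoplasmic reticulum protein degradation (log2 fold change 0.65, edgeR adjusted p 0.0117). Leaving out 1 library gave 2 to 7 genes called higher in WT, fewest without R40D3 replicate 2, and 2 to 8 in LysM-cKO, fewest without R0D3 replicate 2. With the replicate number as a block 18 rose and 3 fell in WT, against 16.7% and 11.6% of all genes. In LysM-cKO 14 rose and 3 fell with the block, against 13% and 8.22%.

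Of 8 mitochondrial chaperones and proteases, 5 rose in each genotype, against 11.4% of all genes in WT and 6.99% in LysM-cKO. They were Hspd1, Hspa9, Dnaja3, Hspe1 and Lonp1, and the list medians were 0.59 in WT and 0.69 in LysM-cKO. Hspd1, which encodes the chaperonin HSP60, rose from 127 and 135 CPM to 242 and 269.7 CPM in WT (log2 fold change 0.96, SE 0.10, edgeR adjusted p 0.0012). In LysM-cKO it rose from 128 and 132 CPM to 204 and 231 CPM (log2 fold change 0.74, edgeR adjusted p 0.00525). Leaving out 1 library gave 2 to 4 calls in WT, fewest without R0D3 replicate 1 or R40D3 replicate 2, and 1 to 5 in LysM-cKO, where the only library whose removal left more than 1 call was R40D3 replicate 1. Among 18 genes of the eIF2 kinases and eIF2 machinery, 5 rose and 1 fell in WT and 2 rose in LysM-cKO. Over all genes 11.4% rose and 5.52% fell in WT, and 6.99% rose and 3.15% fell in LysM-cKO. Eif2ak3, the kinase PERK, rose in WT (log2 fold change 0.58, edgeR adjusted p 0.00889) and in LysM-cKO (log2 fold change 0.45, edgeR adjusted p 0.0343), as did Gcn1, an activator of the kinase GCN2 (log2 fold changes 0.36 and 0.36, edgeR adjusted p 0.0156 and 0.0247). In WT Eif2b3 and Eif2b5 also rose (log2 fold changes 1.00 and 0.59), and Impact, an inhibitor of GCN2 activation, fell (log2 fold change −0.59, edgeR adjusted p 0.0128). Leaving out 1 library gave 0 to 3 genes called higher in WT, 0 without R0D3 replicate 1 or R40D3 replicate 2, and 0 in LysM-cKO whichever library was removed. With the replicate number as a block 7 rose and 1 fell in each genotype. The block shares of all genes were 16.7% and 11.6% in WT, and 13% and 8.22% in LysM-cKO.

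Few endoplasmic reticulum chaperones were called. Beside the counts that follow, 11.4% of all genes rose and 5.52% fell in WT, and 6.99% and 3.15% in LysM-cKO. With the replicate number as a block these shares were 16.7% and 11.6% in WT, and 13% and 8.22% in LysM-cKO. Of 17 chaperones of the ATF6 and XBP1 arms, only Dnajb9 rose in WT (log2 fold change 0.34, edgeR adjusted p 0.0484), and in LysM-cKO none was called (smallest p for Dnajb9, Sdf2l1 and Syvn1, edgeR adjusted p 0.103, 0.392 and 0.392). The Dnajb9 call was lost when any 1 of the 4 libraries was left out. With the replicate number as a block 5 chaperones rose in WT and 1 in LysM-cKO. Of 8 paralogues of the members tested, Jdp2, which is also among the other ATF4 targets, rose in both genotypes and Sesn1 fell in WT (log2 fold change −0.50, edgeR adjusted p 0.00483), a call lost without R0D3 replicate 2. Of 17 immediate early genes 3 fell and 0 rose in WT, Egr2 (log2 fold change −1.44), Klf6 (−0.52) and Ier5 (−0.55), and 3 fell and 0 rose in LysM-cKO, Egr2 (−1.85), Jun (−0.62) and Klf6 (−0.47), with 1 to 3 and 1 to 2 calls when 1 library was removed. With the replicate number as a block 3 rose and 5 fell in each genotype, and Fos, Junb and Egr1 were the 3 that rose. No heat shock gene was called in either genotype, and Dnajb1, Hspa8 and Hsph1 in WT and Bag3, Hspa8 and Hsph1 in LysM-cKO had the smallest p. With the block 1 rose and 1 fell in WT (Dnajb1 and Hsph1), and 1 rose and 2 fell in LysM-cKO (Hspa8, and Hsph1 and Bag3). Of 23 p53 targets 2 rose and 5 fell in WT, where Plk2 (−1.25), Sesn1 and Zmat3 (−0.39) fell, Pmaip1 (1.28) rose, and Perp rose from 0 CPM in both libraries to 1.57 and 3.18 CPM. In LysM-cKO Plk2 fell (−1.24) and Perp rose. Leaving out 1 library gave 0 to 2 p53 targets higher and 1 to 2 lower in WT, and 0 to 2 higher and 1 lower in LysM-cKO. With the block 2 rose and 7 fell in WT, and 2 rose and 2 fell in LysM-cKO. Of the list genes named here for R40D3 against R0D3, Jdp2, Slc1a5, Hspd1, Egr2 and Plk2 were called in both genotypes in each alternative run, and each other call except that of Dnaja3 in WT was lost without at least 1 library. The myeloid cells also differed in kind between the conditions, with summed macrophage markers of 38410 and 43560 CPM in WT R0D3 and of 26870 and 27560 CPM in WT R40D3 beside the osteoclast markers given above. Whether the members differ with that change of cell type or with RANKL itself cannot be told apart in bulk cultures.

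Between LysM-cKO and WT cultures no member passed the threshold, and most of the fold changes were negative. No member was called at R40D3 or at R0D3, where 0.0143% and 0.0143% of all genes were called by edgeR. DESeq2 called no member either, against 0.164% and 0.0499% of all genes, and gave no adjusted p for Trib3 and Chac1 at R40D3. No member had an unadjusted p under 0.05 in these fits, against 7.47% and 4.42% of all genes. The median log2 fold change of the members was −0.31 at R40D3 and −0.11 at R0D3, against −0.01 and 0.01 over all genes. At R40D3 7 and at R0D3 8 of 10 members were negative, where 48.6% and 51.7% of all genes were positive. Groups did not overlap for 1 member at R40D3, lower in LysM-cKO, against 18.9% of all genes, and for no member higher, against 19.7%. At R0D3 they did not overlap for 1 member higher, against 17.5% of all genes, and 1 lower, against 14.8%.

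At R40D3 Eif4ebp1, Asns, Atf4 and Ppp1r15a were lower in LysM-cKO within both replicate numbers, and none of them passed. Eif4ebp1 was at 68.3 and 83.3 CPM in WT against 49.9 and 66.4 CPM in LysM-cKO, without overlap (log2 fold change −0.38, SE 0.17, edgeR unadjusted p 0.0578, adjusted p 0.648). Asns, Atf4 and Ppp1r15a overlapped between genotypes, because replicate 2 was high in each, but were lower in LysM-cKO within each replicate number. For Asns the log2 ratio within replicates 1 and 2 was −0.40 and −0.43, for Atf4 −0.30 and −0.33, for Ppp1r15a −0.29 and −0.31 and for Eif4ebp1 −0.45 and −0.33. These 4 are all the members lower in both same-numbered pairs, and 4 of 10 is near the 34.3% of all genes that were lower in both. With the replicate number as a block their unadjusted p in edgeR was 0.00485, 0.00469, 0.00815 and 0.00192, and none passed over all genes (edgeR adjusted p 0.135, 0.135, 0.151 and 0.109). Without WT R40D3 replicate 2 the log2 fold change of Asns was 0.044 and the median of the members 0.063, while Eif4ebp1, Ppp1r15a and Atf4 were still negative (−0.22, −0.12 and −0.054). Of the other members, Ddit3 and Sesn2 were slightly higher in both numbers, against 31.7% of all genes, and Atf5, Atf3, Trib3 and Chac1 went different ways.

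At R0D3 the differences were smaller. Sesn2 was at 28.8 and 32.5 CPM in WT against 34.6 and 33.1 CPM in LysM-cKO, higher in both (log2 fold change 0.14, SE 0.11), and Ddit3 at 12.8 and 13.3 CPM against 11.4 and 11.1 CPM, lower in both (log2 fold change −0.21, SE 0.13). Neither passed, with an edgeR adjusted p of 0.997 for each. Within replicate numbers 5 members were lower in LysM-cKO in both pairs, against 27.7% of all genes, among them Asns (−0.26 and −0.49) and Atf4 (−0.03 and −0.07). The interaction of genotype with culture condition called 0 members and 0% of all genes in edgeR and none in DESeq2, no member had an unadjusted p under 0.05, against 1.77% of all genes, and all members had an adjusted p of 1. The comparisons of R40D3 with R0D3 in 1 genotype and of genotypes at R40D3 share libraries, so their values for a gene are not independent.

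The other pathway genes were not called between genotypes in the cultures. Of 39 other ATF4 targets 32 were negative at R40D3 with a median of −0.19, and 27 at R0D3 with a median of −0.07. Over all genes, 48.6% were positive at R40D3 and 51.7% at R0D3. The list median was −0.024 at R40D3 without WT R40D3 replicate 2, and 0.041 at R0D3 without WT R0D3 replicate 2. The smallest p at R40D3 were those of Vldlr, which was higher in LysM-cKO (6.59 and 7.57 CPM against 18.5 and 19.5 CPM, edgeR adjusted p 0.648), Cebpg and Got1. At an edgeR unadjusted p under 0.05, 2 of the 39 were higher and 1 was lower, against 7.47% of all genes. At R0D3 the smallest p were those of Cebpb, Ddit4 and Nupr1, all lower (edgeR adjusted p 0.997). At R40D3 16 of 17 endoplasmic reticulum chaperones and 8 of 8 heat shock genes were negative, with medians of −0.12 and −0.15, whereas at R0D3 13 of the 17 chaperones were positive (median 0.038) and 5 of the 8 heat shock genes negative (median −0.026). At R40D3 18 of 23 p53 targets were positive with a median of 0.24. The mitochondrial chaperones had medians of −0.14 at R40D3 and −0.04 at R0D3, and the eIF2 machinery −0.03 and 0.01. Summed osteoclast markers were 26470 and 39000 CPM in WT and 13270 and 24990 CPM in LysM-cKO at R40D3, and summed macrophage markers 26870 and 27560 CPM against 20290 and 18370 CPM. At R0D3 summed macrophage markers were 38410 and 43560 CPM in WT and 24000 and 24530 CPM in LysM-cKO, and osteoclast markers 471 and 352 CPM against 415 and 326 CPM. The macrophage list includes Lyz2, the lysozyme M gene for which the LysM-driven Cre is named. Its part in the macrophage sums was not tested. At R40D3 the osteoclast markers were higher in replicate 2, as were Atf4, Asns and Eif4ebp1, and at R0D3 they were lower in replicate 2. Their part in the values of the members was not tested.

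**Figure D4:**
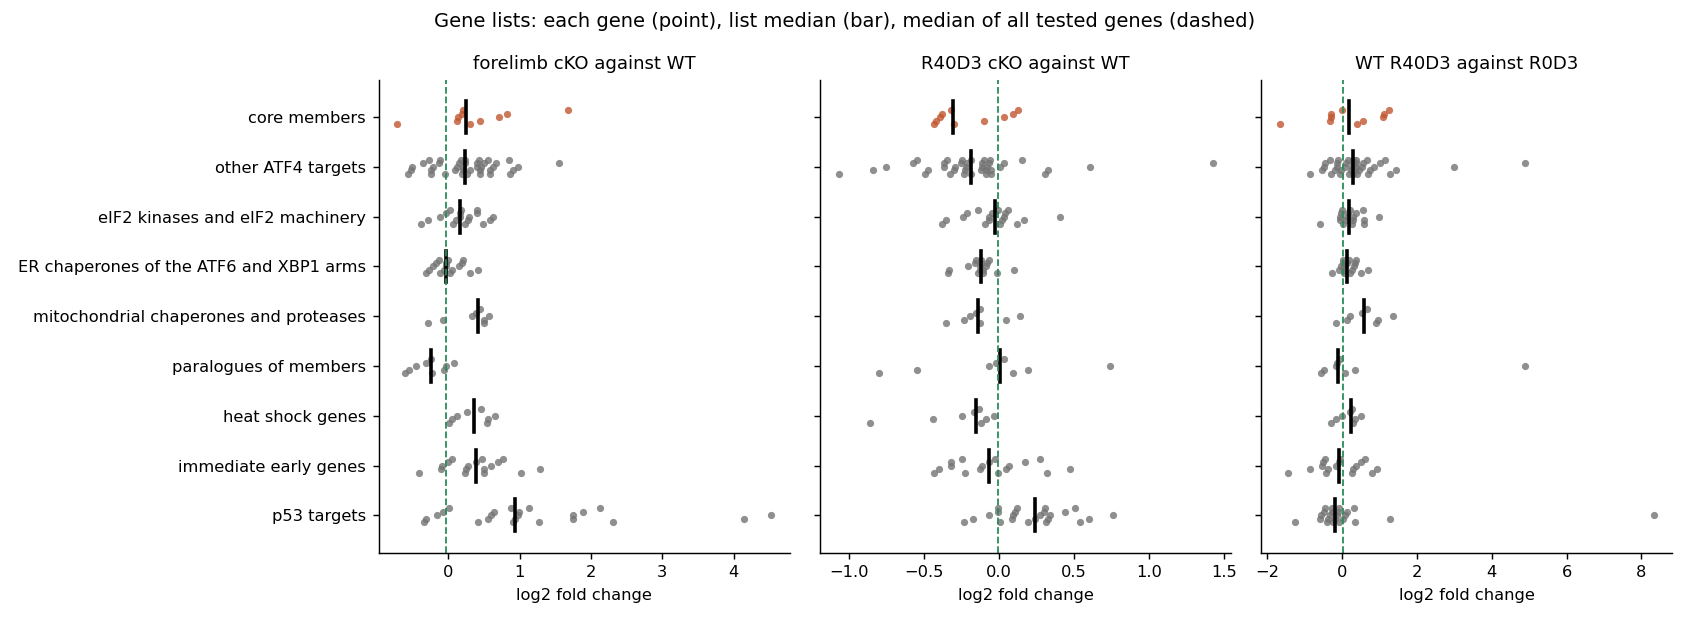
Log2 fold changes of the genes in each list for 3 comparisons, on axes of different range; points are genes, the bar is the list median and the dashed line the median of all tested genes. The core members have medians of 0.25 (forelimb), −0.31 (R40D3, LysM-cKO against WT) and 0.19 (WT, R40D3 against R0D3), and p53 targets have 0.93, 0.24 and −0.20.

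The genes whose pattern over the 8 culture libraries was most like that of the members were described by Pearson correlation of log2 CPM. Closest to the mean of the standardised members were Capn11 (r = 0.97), Rpl36-ps12 (r = 0.96), Gm3531 (r = 0.95), Aurkaip1 (r = 0.95) and Sec61g (r = 0.94). Closest to Atf4 alone were Med29 (r = 0.99), Wdr89 (r = 0.99), Elovl1 (r = 0.98), Isoc2a (r = 0.98) and Cst3 (r = 0.98). The 8 libraries fall into 4 groups of 2 and share the difference between R40D3 and R0D3 and that between replicate numbers, and Rpl36-ps12 is a pseudogene whose counts are uncertain, so these values rank genes and say no more.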

How the data were processed

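RNA was measured in 12 mouse libraries in 6 groups of 2. The values, deposited by the authors, are read counts in whole numbers for each Ensembl gene, not normalized, with 1 table for the forelimbs and 1 per replicate number for the cultures. The submitters' processing notes name FastQC 0.11.2, Trimmomatic 0.36, HISAT2 2.1.0, DESeq2 1.12.4 and GRCm38, with no role for each; RNA was taken with TRIzol into an mRNA library kit, per the labels' protocols. The counting tool, annotation and use of strand are not given in the sources used here, so overlapping genes are uncertain. Genes kept by filterByExpr (19987 in the forelimb, 14030 in the cultures) were tested two-sided with the edgeR 4.0.16 quasi-likelihood method, TMM scaling and Benjamini-Hochberg adjustment over all of them, at a threshold of 0.05. Forelimbs (4 libraries) and cultures (8 libraries, 4 groups sharing 1 estimate of spread) had separate fits. SE is the absolute log2 fold change over the square root of F. DESeq2 1.42.0, other scalings, filters, a replicate block and each library left out were alternatives; the fits were tested on simulated data. Same-numbered culture libraries were taken as paired only in the replicate block and in the readings within replicate numbers. The main fits used group means without a block. The pairing was used because deviations of these libraries from their group means correlated in all 6 pairs of groups (r from 0.343 to 0.609). Symbols, positions and exon lengths came from GENCODE M21. Named list genes are, per list and comparison, up to 5 called genes with the smallest p, or the 3 smallest p where none was called. The members and lists were chosen with earlier results of these data known.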

Additional observations from a re-analysis of the deposited data

Results flagged for a closer look

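Eif4ebp1 separated the genotypes in opposite directions in the forelimbs and in the R40D3 cultures. Both Prx-cKO forelimb libraries lay above both WT libraries (log2 fold change 0.83), as for 22.2% of all genes. At R40D3 both LysM-cKO libraries lay below both WT libraries (log2 fold change −0.38), as for 18.9% of all genes. At R0D3 the genotypes overlapped (log2 fold change −0.11). The forelimb and R40D3 effects differ by 1.21 on the log2 scale. The difference was not tested, because the tissues were counted and fitted separately, and neither effect passed the edgeR threshold by itself.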

How the results depend on the processing

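Changes of scaling, the filter or the legacy fit of edgeR moved no count of members called by more than 1.5 times. In the forelimb DESeq2 called 2 members and fits leaving out 1 library called 0 to 2, against 0; the forelimb block by replicate number (r of deviations 0.261, 2 pairs) and, added after seeing the data, a block by Xist and Ddx3y counts called 0. With the replicate block in the cultures 5 members were called in WT and 4 in LysM-cKO at R40D3 against R0D3, each against 2, and it changed no other member count. With only the 4 compared libraries 1 was called in LysM-cKO. Leaving out 1 library gave 1 to 3 calls in WT and 1 to 3 in LysM-cKO. The cause of these changes was not tested. Over all genes, the forelimb calls were 0 by edgeR, 199 higher and 191 lower by DESeq2, 286 and 317 without WT replicate 1 and 63 and 41 without WT replicate 2. At R40D3 against R0D3 the block gave 2346 higher and 1631 lower genes in WT, against 1593 and 774, and 1830 and 1153 in LysM-cKO, against 980 and 442, or 396 and 137 with only its 4 libraries. Genotype calls at R40D3 were 18 higher and 5 lower by DESeq2 and 17 and 13 with the block, and at R0D3 4 and 3 by DESeq2. Over the leave-outs the median of the members ran from 0.16 to 0.47 in the forelimb, −0.52 to 0.063 for genotype at R40D3, −0.23 to 0.033 for genotype at R0D3, −0.086 to 0.56 and −0.014 to 0.40 for R40D3 against R0D3 in WT and LysM-cKO, and −0.33 to 0.17 for the interaction. The following log2 fold changes, none of them called, changed sign when 1 library was left out: for the forelimb genotype, Atf4 (−0.017 to 0.24) and Trib3 (−0.034 to 0.51). For genotype at R40D3, Atf5 (−0.029 to 0.29), Atf3 (−0.23 to 0.063), Ddit3 (−0.042 to 0.12), Trib3 (−1.07 to 0.70), Asns (−0.87 to 0.044), Chac1 (−1.12 to 0.70) and Sesn2 (−0.009 to 0.20). For genotype at R0D3, Atf4 (−0.17 to 0.071), Atf5 (−0.21 to 0.008), Atf3 (−0.16 to 0.33), Trib3 (−1.42 to 0.34), Chac1 (−2.17 to 0.024), Eif4ebp1 (−0.26 to 0.06) and Ppp1r15a (−0.17 to 0.001). In WT at R40D3 against R0D3, Trib3 (−1.45 to 0.79), Chac1 (−0.055 to 1.82) and Sesn2 (−0.12 to 0.079). In LysM-cKO at R40D3 against R0D3, Atf5 (−0.22 to 0.007), Ddit3 (−0.15 to 0.01), Trib3 (−0.52 to 0.49), Sesn2 (−0.18 to 0.028) and Ppp1r15a (−0.034 to 0.30). Sesn2 in WT at R40D3 against R0D3 was 0.00 with library size alone. With 2 libraries a group, the low counts of Chac1 and Trib3 limit what can be seen of them.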
